A study of Tachysurus vachellii with 12 samples.

Results

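Rab GTPases and SNARE proteins direct membrane traffic between the compartments of a cell. A Rab protein switches between a GTP-bound and a GDP-bound form, and in its active form it marks one membrane and recruits the proteins that move, tether or dock a vesicle there. SNARE proteins (the syntaxins, the VAMPs and the SNAP-25 family) then zip together across both membranes and drive fusion. In hepatocytes this machinery carries newly made plasma proteins out of the endoplasmic reticulum (ER) and Golgi, sorts endocytosed receptors, and delivers autophagosomes to lysosomes.

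The genes were measured in liver mRNA of juvenile Tachysurus vachellii, a catfish of the bagrid family, named Pelteobagrus vachelli in the series title. There were 3 hypoxia pools, taken after 4 h at 0.7 mg/L oxygen, and 3 control pools, taken at 6.8 mg/L. Each pool held 5 livers and gave 1 library, lettered a, b or c within its group, and both groups came out of the same 3 aquaria, with the control fish removed first. Time in the experiment therefore differs between the groups along with oxygen, and these cannot be told apart. In whole liver, fewer cells of a type and less RNA per cell cannot be told apart either.

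Members were the assembled genes (components) whose name was Rab with a number and an optional letter, Stx or Vamp with a number, or Snap23, Snap25 or Snap29, ignoring case, with the component of most counts standing for each name. There were 63 such members among 34744 components, namely 43 Rabs, 14 syntaxins, 4 VAMPs and 2 SNAPs (Snap23 and SNAP29). No component carried the name snap25. A further 22 components shared a name with a member, so 85 components carried a member name in all. Names were those in the deposited table, and for some members its protein annotation named another gene. STX10 was annotated as syntaxin 6, Stx12 as syntaxin 7, Vamp3 as VAMP1, STX4 as the syntaxin 1B/2/3 group, STX19 as syntaxin 11, RAB3C as Rab-3D and RAB15 as nucleolin. RAB6A and RAB39B had only a general Rab family annotation.

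Library totals ranged from 32652355 to 35852306 estimated counts. EGLN3, a prolyl hydroxylase and a known target of hypoxia-inducible factor (HIF), rose to 132.7 ± 0.427 CPM (counts per 1000000 reads, scaled by TMM) in hypoxia, against 4.96 ± 2.16 CPM in control (SD, n = 3 each; edgeR adjusted p = 0.00012). The summed level of 10 matched hepatocyte markers lay between 27440 and 34210 TPM (counts per length, scaled to 1000000 in each library) in hypoxia and between 30570 and 35280 TPM in control. Of 14 listed exocrine pancreas markers 9 were matched. Their summed level was 7693, 2491 and 1956 TPM in hypoxia pools a, b and c, against 5224, 1549 and 77.4 TPM in control pools a, b and c. Of 18 listed nerve and endocrine markers only scg3 was matched. Libraries c of both groups stood apart from the others on the second principal component of all components.

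The most abundant members were Rabs of the main secretory and endocytic routes. Levels between genes are given per length, as TPM, and are those of the member component alone. Further components named RAB7A averaged 18.21 and 29.57 TPM over the 6 libraries. Others averaged 21.35 TPM for RAB1A, 17.59 TPM for RAB6A and 12.74 TPM for RAB11A. The order by name therefore differs from that given here. With its components added together, Rab7a lies above RAB2A. RAB2A, which acts between ER and Golgi, averaged 102.7 ± 13.8 TPM in hypoxia and 105.4 ± 10.7 TPM in control (SD, n = 3 each). Rab7a, the Rab of late endosomes and lysosomes, averaged 77.2 ± 8.83 TPM in hypoxia and 81.0 ± 8.35 TPM in control. Rab5c, a Rab of early endosomes, averaged 64.8 ± 13.3 TPM in hypoxia and 65.2 ± 5.74 TPM in control. The 6 libraries of RAB2A and of Rab7a overlapped, and so did those of Rab7a and Rab5c, whereas every library of Rab5c lay above every library of the next gene, RAB10. RAB10 and RAB11A followed at 39.4 TPM each over the 6 libraries. These top 3 Rabs held 31.5% of the summed level of all members.

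Among the SNAREs, SNAP29, which joins syntaxin 17 in fusing autophagosomes with lysosomes, averaged 22.2 ± 1.82 TPM in hypoxia and 27.4 ± 3.13 TPM in control. Snap23, the SNAP-25 relative of the plasma membrane outside nerve cells, averaged 20.6 ± 1.28 TPM in hypoxia and 21.3 ± 2.48 TPM in control. The highest syntaxins over the 6 libraries were STX10, at 20.6 TPM, the endosomal STX7, at 15.1 TPM, and the endosomal STX8, at 8.96 TPM. The highest VAMPs were the lysosomal VAMP7, at 15.7 TPM, the recycling Vamp3, at 14.1 TPM, and the endosomal and secretory Vamp8, at 10.3 TPM. At the other end, 5 members averaged under 1 TPM, and the lowest was Rab37, a secretory granule Rab in mammals, at 0.736 TPM.

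**Figure D1:**
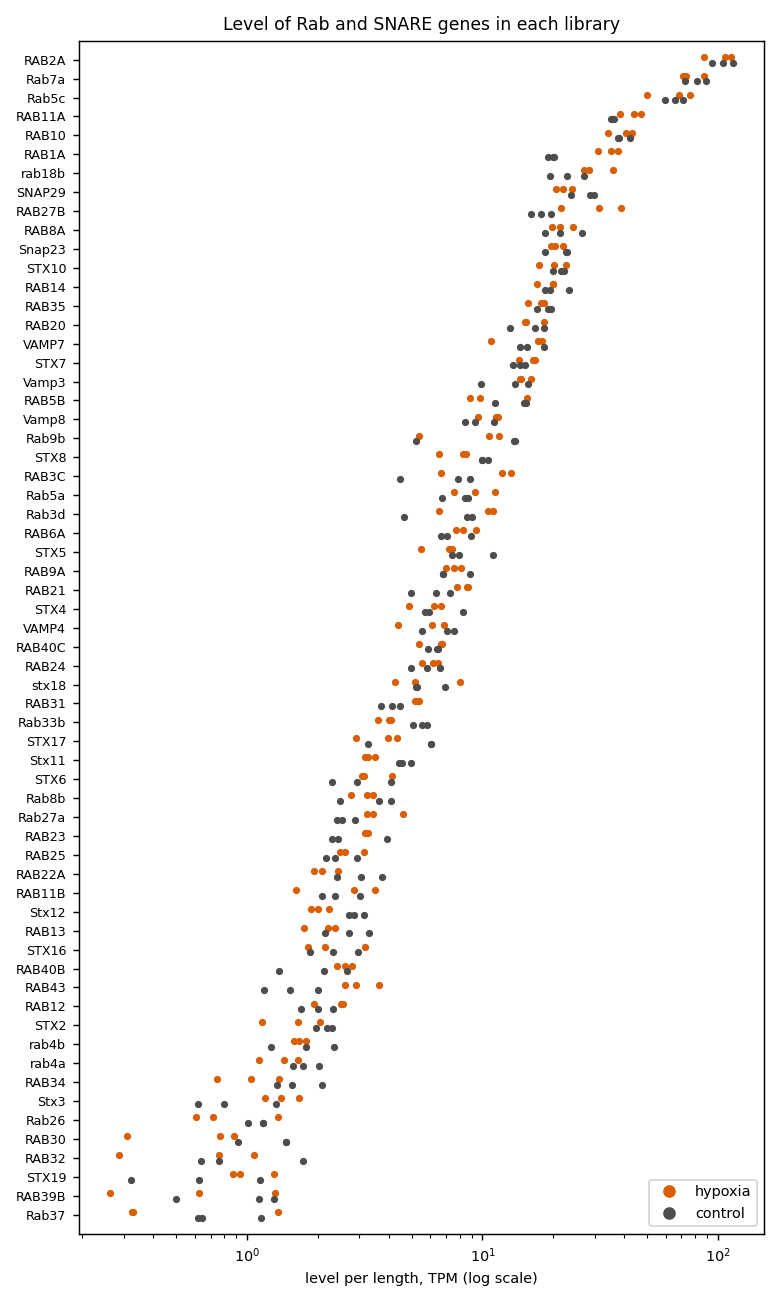
Level of each member in TPM (log scale) in the 3 hypoxia libraries (orange) and the 3 control libraries (grey), ordered by the mean over the 6 libraries and without RAB15, which had no counts in 4 libraries. RAB2A, Rab7a and Rab5c head the order and Rab37 closes it; the RAB1A points of hypoxia all lie above those of control.

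The summed level of each family stayed close between the groups. All 63 members summed to 790.5, 863.9 and 748.0 TPM in the hypoxia pools a, b and c, against 799.8, 773.5 and 750.8 TPM in the control pools. The Rabs summed to 630.0 ± 55.6 TPM in hypoxia and 591.7 ± 27.9 TPM in control, a log2 ratio of 0.09. The syntaxins summed to 81.0 ± 4.30 TPM in hypoxia and 88.9 ± 4.10 TPM in control, a log2 ratio of -0.13, and their 3 hypoxia libraries all lay below the 3 control libraries. The VAMPs summed to 47.0 ± 5.34 TPM in hypoxia and 45.5 ± 0.581 TPM in control, and the SNAPs to 42.8 ± 1.86 TPM in hypoxia and 48.7 ± 5.59 TPM in control, with overlapping libraries in both. These sums leave out the further components that share a member name. They are a description and carry no test.

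Gene by gene, 57 members had enough counts to be tested with edgeR's quasi-likelihood test across all 25415 components tested. At a Benjamini-Hochberg adjusted p under 0.05, 1 member rose (RAB1A), 0 fell and 56 did not pass. Members were picked by counts summed over both groups, and a further Rab33b component, not counted as a member, fell, as given below. Over all components tested, 6.36% passed, with 4.56% rising and 1.8% falling, and among named genes taken once per name 7.07% passed, with 4.09% rising and 2.97% falling. DESeq2 also called 1 rise and 0 falls among the members. Without both libraries c, 2 members rose (RAB1A and RAB43) and 1 fell (STX17), while over all components 2337 rose and 1479 fell. At an unadjusted p under 0.05 there were 10 members, of which 3 were higher (RAB1A, RAB27B and RAB43) and 7 lower in hypoxia (Rab33b, RAB22A, SNAP29, STX8, STX5, Stx11 and Stx12). The same held for 24.5% of named genes and 21.7% of all components tested. The median log2 fold change, hypoxia over control, was -0.08 over the members and -0.09 over named genes. The median size of the change was 0.20 over the members, against 0.30 over named genes and 0.35 over all components tested.

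The members' spread was narrow enough to bound most of these changes. For 42 of the 57 tested members the 95% interval of the log2 fold change lay within 1 log2 unit of 0, and the same held for 63.1% of named genes and 42.5% of all components tested. In TMM-scaled CPM the hypoxia and control libraries did not overlap in 14 members, 4 higher and 10 lower in hypoxia. In TPM, which carry no TMM scaling, some of these overlapped, as given below. Over named genes 32.8% did not overlap, 12.6% higher and 20.3% lower, and over all components tested 28.3% did not, 14.6% higher and 13.7% lower. The 6 untested members were RAB15, which had counts only in the libraries c, and RAB30, RAB32, RAB37, RAB39B and STX19, at low counts.

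**Figure D2:**
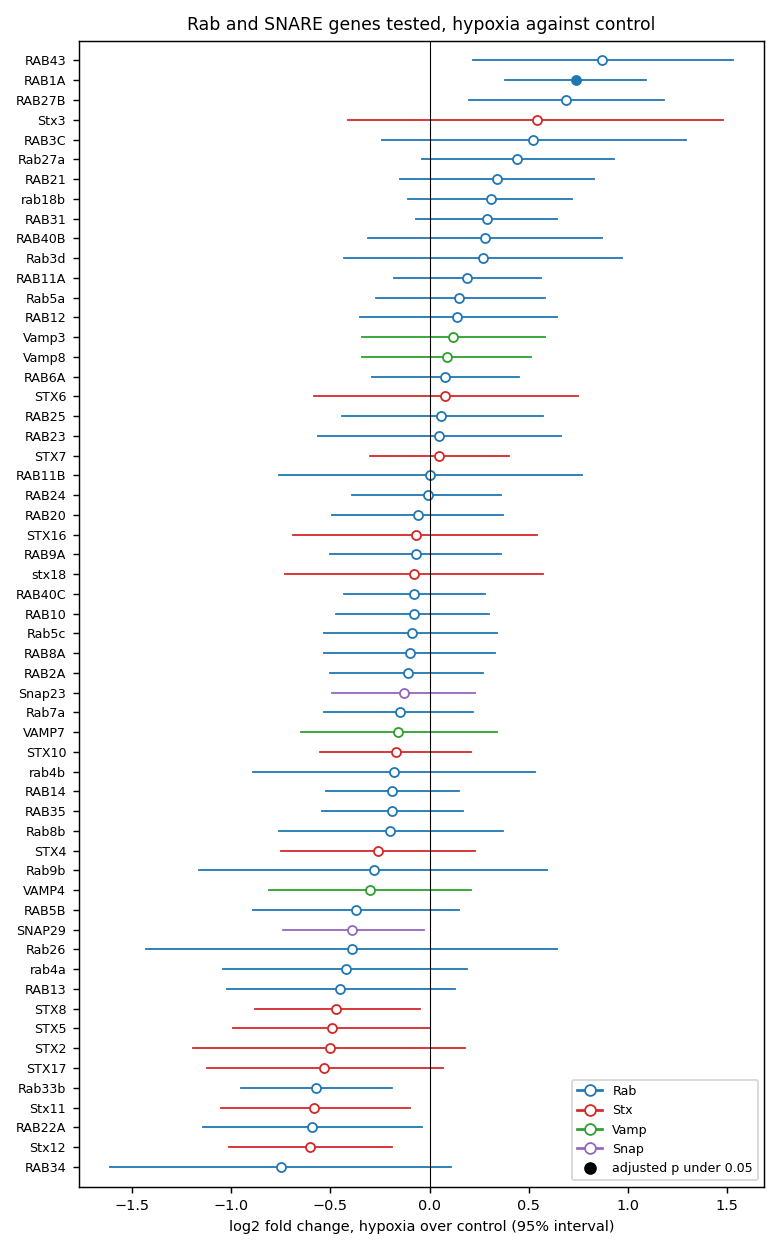
Log2 fold change, hypoxia over control, with its 95% interval for the 57 tested members, coloured by family; the filled point has an adjusted p under 0.05. Points run from -0.75 (RAB34) to 0.87 (RAB43), and RAB1A, at 0.74, is the only filled one.

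RAB1A comp19486_c0, the Rab of transport from ER to Golgi and across early Golgi membranes, was measured at 64.5, 57.8 and 51.4 CPM in hypoxia pools a, b and c, against 33.5, 35.7 and 35.1 CPM in the control pools. The lowest hypoxia library thus lay well above the highest control library. The log2 fold change was 0.74 (SE 0.16, 95% interval 0.38 to 1.09, edgeR adjusted p = 0.028), a 1.67-fold higher value in hypoxia. The adjusted p was 0.10 without hypoxia pool a, 0.11 without hypoxia pool b, 0.16 without control pool a and 0.12 without control pool b. A further component named and annotated RAB1A (comp12629_c0) did not pass. It had 38.5, 27.5 and 19.9 CPM in hypoxia, against 25.8, 25.5 and 28.3 CPM in control, and the groups overlapped (log2 fold change 0.11, adjusted p = 0.83). With both components summed, the log2 fold change of RAB1A was 0.49 and the adjusted p 0.13.

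With RAB1A included, the 8 tested members of ER and Golgi routes had 4 positive and 4 negative estimates and a median log2 fold change of 0.00. RAB43, a Golgi Rab, had the highest estimate of the members that did not pass. It was at 3.14, 2.16 and 2.42 CPM in hypoxia, against 1.28, 1.06 and 1.87 CPM in control. The groups did not overlap, and the log2 fold change was 0.87 (95% interval 0.22 to 1.53, adjusted p = 0.12). For RAB43 comp10531_c1 without both libraries c it was 1.17, with an adjusted p of 0.023. STX5, the Golgi syntaxin that pairs with vesicles arriving from the ER, was at 8.92, 11.5 and 11.4 CPM in hypoxia, against 12.6, 12.7 and 19.5 CPM in control, lower without overlap, but did not pass (log2 fold change -0.49, adjusted p = 0.23). RAB2A, the member component of highest level, had a log2 fold change of -0.11 with a 95% interval from -0.50 to 0.27.

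Rab33b is a Golgi Rab that in mouse cells also binds the autophagy protein ATG16L1. Here the name was carried by a pair of components of nearly equal counts, so the choice of component sets the value. The one with more counts in all (comp13384_c0, 1565.84 over the 6 libraries) was at 6.74, 6.30 and 5.72 CPM in hypoxia, against 8.87, 8.70 and 10.3 CPM in control. Its groups did not overlap, and the log2 fold change of -0.57 did not pass (SE 0.17, 95% interval -0.95 to -0.19, adjusted p = 0.085). The one with fewer counts (comp16231_c0, 1480.88 in all) was at 2.57, 3.26 and 3.07 CPM in hypoxia, against 16.7, 12.9 and 5.51 CPM in control. It fell, by 1.98 on the log2 scale (SE 0.36, 95% interval -2.80 to -1.15, adjusted p = 0.016), which was the largest fall of any tested component with a member name. The hypoxia libraries lay close together, while control c was well below control a and b. This component held on average 53.3% of the pair in control and 32.2% in hypoxia. Its mean level over the 6 libraries was 6.14 TPM, against 4.68 TPM for comp13384_c0. It was thus the greater of the pair in control on average, and the lesser only in counts over both groups. For Rab33b comp16231_c0 the adjusted p was 0.070 without hypoxia pool a, 0.066 without hypoxia pool b, 0.072 without control pool a and 0.071 without control pool b. A short fragment of the same assembly group, also annotated Rab-33B, had too few counts to test. With the Rab33b components summed, the gene fell by 1.21 on the log2 scale (adjusted p = 0.010).

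Rab20, known in mammalian cells as a HIF-induced Rab that acts on maturing phagosomes and endosomes, was likewise split. The component with most counts (RAB20, comp14509_c0) was at 15.9, 12.7 and 12.7 CPM in hypoxia, against 14.1, 11.9 and 17.1 CPM in control, with overlapping groups (log2 fold change -0.06, adjusted p = 0.89). The lesser one (Rab20 comp12927_c0) was at 4.41, 2.85 and 2.57 CPM in hypoxia, against 1.31, 0.788 and 1.12 CPM in control. Every hypoxia library of this lesser component was above every control library. It rose by 1.60 on the log2 scale (SE 0.31, adjusted p = 0.018). Without 1 pool at a time, its adjusted p was 0.072 without hypoxia a, 0.056 without hypoxia b, 0.067 without control a and 0.086 without control b. It made up 18.9% of the counts of the pair in hypoxia and 6.96% in control, so the summed change was small (log2 fold change 0.14, adjusted p = 0.72).

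For RAB11A, the Rab of recycling endosomes, 3 components carried the name. Its main component (comp14681_c0) was at 117.2, 104.3 and 92.0 CPM in hypoxia, against 87.2, 91.4 and 95.8 CPM in control, and the groups overlapped (log2 fold change 0.19, adjusted p = 0.54). A lesser component, RAB11A comp7543_c0, was at 33.4, 16.3 and 9.20 CPM in hypoxia, against 7.35, 6.03 and 6.85 CPM in control. These groups did not overlap, and hypoxia a was far above hypoxia c. The log2 fold change of the lesser component was 1.54 (SE 0.40), and it did not pass (adjusted p = 0.057). With the library letter as a block it was 1.36 and passed (adjusted p = 0.027), as it did in DESeq2 (adjusted p = 0.0016) and without hypoxia pool c (1.87, adjusted p = 0.0070). Without hypoxia pool a it was 0.90 (adjusted p = 0.12). The third component (comp9787_c1), annotated as Rab-11B, was at 0.514, 0.968 and 0.855 CPM in hypoxia, against 1.02, 1.30 and 0.530 CPM in control, with overlap (log2 fold change -0.29, adjusted p = 0.73). Summed over its components, RAB11A had an estimate of 0.32 on the log2 scale and did not pass (adjusted p = 0.32).

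RAB35, which acts in fast recycling from endosomes to the plasma membrane, was carried by 4 components. In all 4 the hypoxia libraries lay below the control libraries without overlap in CPM, as in 13.7% of all components tested. The main one (comp4182_c0) was at 30.4, 29.7 and 25.8 CPM in hypoxia, against 31.5, 30.4 and 36.1 CPM in control, a difference that in the nearest libraries is very small. The 3 lesser ones had log2 fold changes of -0.89, -0.72 and -0.31, with adjusted p of 0.13, 0.091 and 0.27. With the library letter as a block, the first of these (RAB35 comp11700_c0) passed (log2 fold change -0.96, adjusted p = 0.043). Without both libraries c its log2 fold change was -1.18 (adjusted p = 0.010), and without hypoxia pool c -1.28 (adjusted p = 0.024). Summed over its components, RAB35 changed by -0.31 on the log2 scale and did not pass (adjusted p = 0.23).

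Across all components that carry a member name, 75 were tested, and 2 rose (RAB1A comp19486_c0 and Rab20 comp12927_c0) and 1 fell (Rab33b comp16231_c0). These were 4.0% of those tested, 2.67% rising and 1.33% falling. Of all components tested 6.36% passed, 4.56% rising and 1.8% falling. There were 18 tested pairs of a member and a lesser component of the same name, over 14 names. The ratio of lesser to main component was higher in hypoxia without overlap in 4 pairs and lower in 3, and it overlapped in 11. Some of these gaps were very small. The Rab33b pair counted as lower with a rounded log2 ratio of -0.9 in both hypoxia c and control c. RAB7A comp13688_c0 counted as higher on mean log2 ratios of -2.82 in hypoxia and -2.92 in control. The same count was not made over other names, so no background share can be set beside it. Whether components of 1 name are gene duplicates, alleles or pieces of 1 transcript is not given in the sources used here, and estimated counts of near-identical sequences are uncertain between them.

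**Figure D3:**
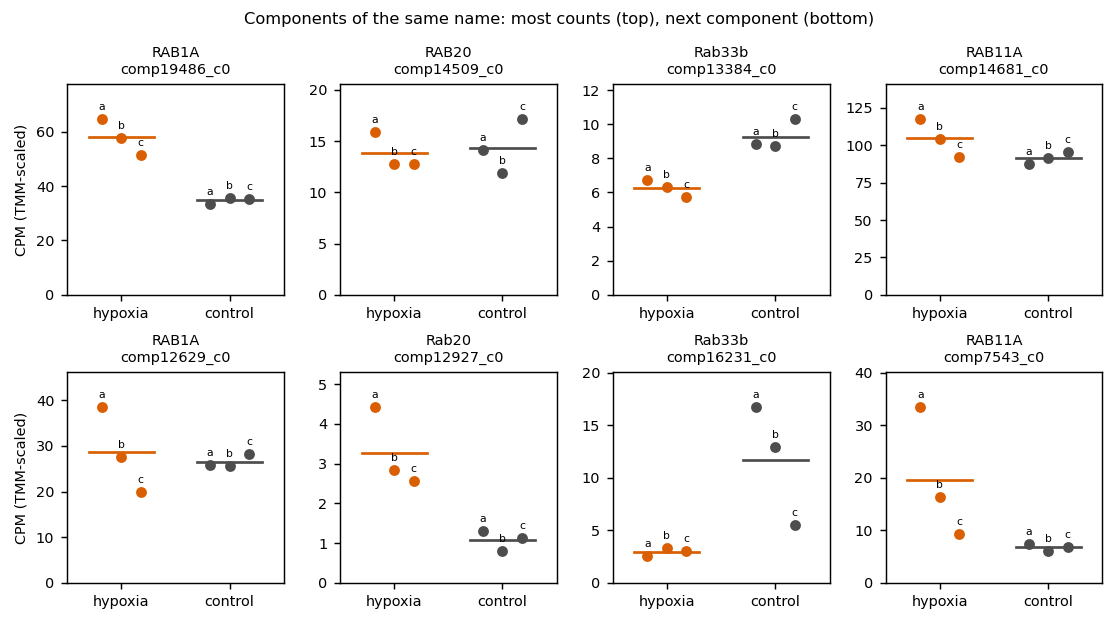
TMM-scaled CPM per library (points, lettered a to c) and group mean (line) for the component of most counts (top) and the next component of the same name (bottom), hypoxia left of control. RAB1A is higher in hypoxia without overlap in the top component only, and Rab20 and RAB11A in the bottom component only. Rab33b is lower without overlap in both, more so in the bottom one.

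Among the 15 tested members of early and recycling endosomes none passed, and the median log2 fold change was -0.09. In 5 of them the hypoxia libraries were below the control libraries without overlap in TMM-scaled CPM (Stx12, RAB22A, rab4a, RAB14 and RAB35). In 1 they were above (RAB31), where the shares over named genes were 20.3% below and 12.6% above. In TPM, which carry no TMM scaling, Stx12 and RAB31 stayed apart, but RAB22A, rab4a, RAB14 and RAB35 overlapped. Stx12, a recycling endosome syntaxin, was at 3.36, 3.82 and 3.48 CPM in hypoxia, against 5.48, 5.09 and 5.54 CPM in control. Both groups were tight and well apart, and the log2 fold change was -0.60 (95% interval -1.01 to -0.19, adjusted p = 0.091). RAB22A, an early endosome Rab, was at 1.75, 1.96 and 1.56 CPM in hypoxia, against 3.06, 2.12 and 2.77 CPM in control (log2 fold change -0.59, adjusted p = 0.19). Its hypoxia b and control b were close. Rab5c had a log2 fold change of -0.09 (95% interval -0.53 to 0.34).

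The members of late endosomes, lysosomes and autophagosomes had small estimates. None of 10 passed, and 9 of the 10 had a 95% interval within 1 log2 unit of 0. Rab7a had a log2 fold change of -0.15 (95% interval -0.53 to 0.22), VAMP7 of -0.16, STX7 of 0.05 and Vamp8 of 0.09. SNAP29 was at 17.4, 17.9 and 19.8 CPM in hypoxia, against 24.6, 21.2 and 26.4 CPM in control, lower without overlap (log2 fold change -0.39, adjusted p = 0.19). In TPM the SNAP29 groups overlapped (24.05 in hypoxia c, 23.82 in control b). STX8, which works with syntaxin 7 in late endosome fusion, was at 4.17, 5.23 and 5.13 CPM in hypoxia, against 6.21, 6.64 and 7.26 CPM in control, also lower without overlap (log2 fold change -0.47, adjusted p = 0.18). STX17, the syntaxin of the autophagosome, was at 5.65, 5.89 and 4.01 CPM in hypoxia, against 8.37, 9.03 and 4.98 CPM in control. Its control c lay among the hypoxia libraries (log2 fold change -0.53, adjusted p = 0.28), and for STX17 comp16336_c0 without both libraries c the log2 fold change was -0.59, with an adjusted p of 0.045.

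For secretion and the plasma membrane, 14 members were tested, none passed, and the median log2 fold change was -0.12. RAB27B, which docks secretory granules and exosome-bearing endosomes in mammalian cells, was at 53.0, 73.3 and 92.2 CPM in hypoxia, against 47.0, 41.3 and 47.1 CPM in control. Every hypoxia library was above every control library, with a wide spread in hypoxia (log2 fold change 0.69, 95% interval 0.20 to 1.18, adjusted p = 0.097). Beside it, scg3, a granule protein of nerve and endocrine cells, was at 28.5, 22.8 and 14.6 CPM in hypoxia, against 6.62, 6.18 and 12.8 CPM in control, and rose (log2 fold change 1.36, adjusted p = 0.045). It was the only 1 matched of 18 listed nerve and endocrine markers, and the part of such cells in the values of secretory Rabs was not tested. Stx3, an apical membrane syntaxin, was at 0.725, 0.581 and 0.501 CPM in hypoxia, against 0.263, 0.606 and 0.374 CPM in control, with overlap at low counts (log2 fold change 0.54, adjusted p = 0.50). Stx11, a syntaxin of immune cell secretion in mammals, was at 2.27, 2.10 and 2.33 CPM in hypoxia, against 2.98, 3.30 and 3.71 CPM in control (log2 fold change -0.58, adjusted p = 0.14). Its groups did not overlap. A further component named STX11 (comp608153_c0) overlapped between the groups (log2 fold change -0.05, edgeR adjusted p = 0.97). With both summed, the log2 fold change was -0.48 (adjusted p = 0.25). Of 15 listed leukocyte markers 8 were matched. Their summed level spanned 27.3 to 41.2 TPM in hypoxia and 29.5 to 38.8 TPM in control. The part of such cells in the values of Stx11 was not tested. Among the remaining members, RAB34, a Golgi and ciliary Rab, had the lowest estimate, at 0.333, 0.442 and 0.590 CPM in hypoxia, against 0.583, 0.970 and 0.748 CPM in control, with overlap (log2 fold change -0.75, adjusted p = 0.29).

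By family, 10 of the 13 tested syntaxins had a negative and 3 a positive estimate, with a median log2 fold change of -0.26, and none passed. Lower in hypoxia without overlap were 4 of them (STX5, STX8, Stx11 and Stx12), beside the 20.3% of named genes given above. The further components named STX5 and STX11 overlapped between the groups, as given above. The same 4 syntaxins were those with an unadjusted p under 0.05, which 24.5% of named genes had. The 38 tested Rabs had 21 negative and 16 positive estimates and a median of -0.06. The 4 VAMPs had 2 of each and a median of -0.04, and both SNAPs were negative, with a median of -0.26. Over named genes, 5484 of 9381 estimates were negative.

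Some members differed between the library letters more than between oxygen levels. Rab9b, a Rab of transport from late endosomes to the trans-Golgi network, was at 9.01, 7.80 and 3.98 CPM in hypoxia, against 10.1, 10.9 and 4.30 CPM in control, so both libraries c were low. RAB15 had 0 counts in the 4 libraries a and b, which allows up to 0.0837 to 0.0912 CPM (3 counts, counting error only), and 1.59 CPM in hypoxia c and 1.78 CPM in control c. Rab3d, a Rab of zymogen granules in mammalian pancreas, was at 3.90, 3.51 and 2.21 CPM in hypoxia, against 2.92, 3.30 and 1.74 CPM in control. RAB3C is annotated as Rab-3D and comes from the same assembly group as Rab3d, so these may not be separate genes. RAB3C was at 3.36, 2.93 and 1.62 CPM in hypoxia, against 2.19, 2.09 and 1.22 CPM in control. Both were lowest in c, as was the summed level of the exocrine pancreas markers in each group, whose part in these values was not tested. Library c was the lowest in both groups in 11 of the 57 tested members and the highest in 11, against 29.3% and 13.9% of named genes and 20.8% and 19.3% of all components tested.

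The partners of Rabs and SNAREs were taken from 7 lists of 225 names, of which 198 were measured and 196 tested. There 5 genes rose and 4 fell, 4.59% of those tested against 7.07% of named genes, with a median log2 fold change of -0.04. With the library letter as a block 9 rose and 8 fell, while over all components tested 6.67% rose and 3.14% fell. The block lost none of the 9 calls and added 4 rises (SEC24B, EEA1, PLEKHM1 and RILPL1) and 4 falls (Mon1b, ccz1, exoc8 and VPS33A). Mon1b and ccz1, whose products form the complex that activates Rab7, had log2 fold changes of -0.87 and -0.74 with the block (adjusted p = 0.048 and 0.042) and -0.88 and -0.74 without it (adjusted p = 0.072 and 0.061). Among Rab regulators, 2 of 41 tested rose and 1 fell. RABIF, which binds and stabilises Rabs that hold no nucleotide, was at 9.73, 8.99 and 10.9 CPM in hypoxia, against 3.27, 2.97 and 2.96 CPM in control. The groups were far apart (log2 fold change 1.69, SE 0.18, adjusted p = 0.0013), and RABIF passed in each of the 15 alternatives run. Tbc1d25, whose mouse protein switches off Rab33b, was at 6.47, 4.89 and 4.28 CPM in hypoxia, against 2.83, 2.12 and 2.52 CPM in control, and rose (log2 fold change 1.06, adjusted p = 0.031). DENND2D, of a family that activates Rabs, was at 5.59, 6.17 and 5.69 CPM in hypoxia, against 10.4, 10.6 and 9.44 CPM in control, and fell (log2 fold change -0.80, adjusted p = 0.022). The call for DENND2D comp7366_c0 was lost without hypoxia a or b or control a or b (adjusted p 0.071 to 0.11). That for Tbc1d25 comp15199_c1 was lost without any single library except hypoxia c (adjusted p 0.057 to 0.13).

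Of 33 listed Rab effectors 24 were matched by name and tested. None of the 24 passed, and their median log2 fold change was 0.16. The name rab11fip4 was listed but not matched. A component named rab11fip4b, outside the name rules, rose (log2 fold change 1.03, edgeR adjusted p = 0.010) and is described under other observations. Among the 24 effectors tested, the smallest adjusted p was that of RILPL1, a partner of Rab8 and Rab10 at the centrosome. It was at 184.9, 139.0 and 103.9 CPM in hypoxia, against 84.7, 87.7 and 58.1 CPM in control, higher without overlap and lowest in library c in both groups (log2 fold change 0.89, adjusted p = 0.073). RILPL1 comp4795_c0 passed with the letter as a block (log2 fold change 0.88, adjusted p = 0.013), without hypoxia pool c (1.06, adjusted p = 0.030) and without both libraries c (0.91, adjusted p = 0.0041). ATG16L1, the Rab33b partner, was at 10.7, 9.87 and 11.7 CPM in hypoxia, against 10.9, 13.3 and 10.8 CPM in control, with overlap (log2 fold change -0.12, adjusted p = 0.72). None of 11 other SNARE proteins and none of 15 SNARE regulators passed. The smallest adjusted p of each list was for use1, an ER SNARE (log2 fold change -0.88, adjusted p = 0.085), and for VPS33A, by name a Sec1/Munc18 protein of lysosome fusion but annotated in the table as a histone demethylase (log2 fold change -0.61, adjusted p = 0.060, and -0.60 and 0.038 with the letter as a block).

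Among tethering and coat genes 3 fell, 4.44% of the tethering and 3.23% of the coat genes tested, and 0 rose. Over named genes 2.97% fell and 4.09% rose. Of 45 tethering genes 2 fell, with a median log2 fold change of -0.09. TRAPPC3, a core subunit of the TRAPP complexes that activate Rab1, was at 3.02, 3.76 and 4.16 CPM in hypoxia, against 7.44, 7.03 and 7.23 CPM in control (log2 fold change -0.99, adjusted p = 0.019). ZW10, a tether of vesicles returning to the ER that also serves at kinetochores, was at 6.23, 7.63 and 7.28 CPM in hypoxia, against 11.3, 11.03 and 14.4 CPM in control (log2 fold change -0.80, adjusted p = 0.035). Of 31 coat genes 1 fell: SAR1A, the GTPase that starts COPII budding from the ER, was at 40.1, 40.3 and 28.0 CPM in hypoxia, against 61.0, 62.0 and 76.9 CPM in control (log2 fold change -0.88, adjusted p = 0.033). In each of these genes the groups did not overlap. The call for TRAPPC3 comp8360_c0 was lost without hypoxia a or b or control a or b (adjusted p 0.064 to 0.098). Those for ZW10 comp10646_c0 (0.063 to 0.11) and SAR1A comp12654_c2 (0.059 to 0.10) were lost without any single library except hypoxia c. SEC24B, by name a coat gene but annotated as a collagen, had the highest coat estimate. It was at 271.3, 159.8 and 72.4 CPM in hypoxia, against 57.0, 64.1 and 43.2 CPM in control. SEC24B was higher without overlap but did not pass (log2 fold change 1.62, edgeR adjusted p = 0.052). With the letter as a block it passed (1.44, adjusted p = 0.014).

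The autophagosome genes held the largest partner change. Of 29 tested 3 rose and 0 fell, with a median log2 fold change of -0.01. The 3 rises were 10.3% of those tested, beside 4.09% of named genes and 4.56% of all components tested. They are too few to describe the list as a whole. GABARAPL1, an Atg8 protein conjugated to autophagosome membranes, was at 87.1, 83.3 and 98.3 CPM in hypoxia, against 12.3, 10.8 and 13.2 CPM in control. This 7.41-fold higher value (log2 fold change 2.89, SE 0.17, adjusted p = 7.1e-05) passed in each of the 15 alternatives run. WIPI2, which brings ATG16L1 to the forming membrane, was at 34.3, 36.9 and 35.5 CPM in hypoxia, against 18.1, 20.4 and 19.2 CPM in control (log2 fold change 0.89, adjusted p = 0.0097). The ULK1 complex subunit atg13 was at 48.4, 46.5 and 46.5 CPM in hypoxia, against 26.3, 26.6 and 25.8 CPM in control (log2 fold change 0.85, adjusted p = 0.011). The calls for WIPI2 comp17186_c1 and atg13 comp17055_c1 were lost without hypoxia b, control a or control b (adjusted p 0.055 to 0.088 and 0.058 to 0.088). All 3 genes were tight within groups. The SNAREs of autophagosome fusion given above (STX17, SNAP29 and Vamp8) did not pass. The difference between these genes and the SNAREs was itself not tested.

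**Figure D4:**
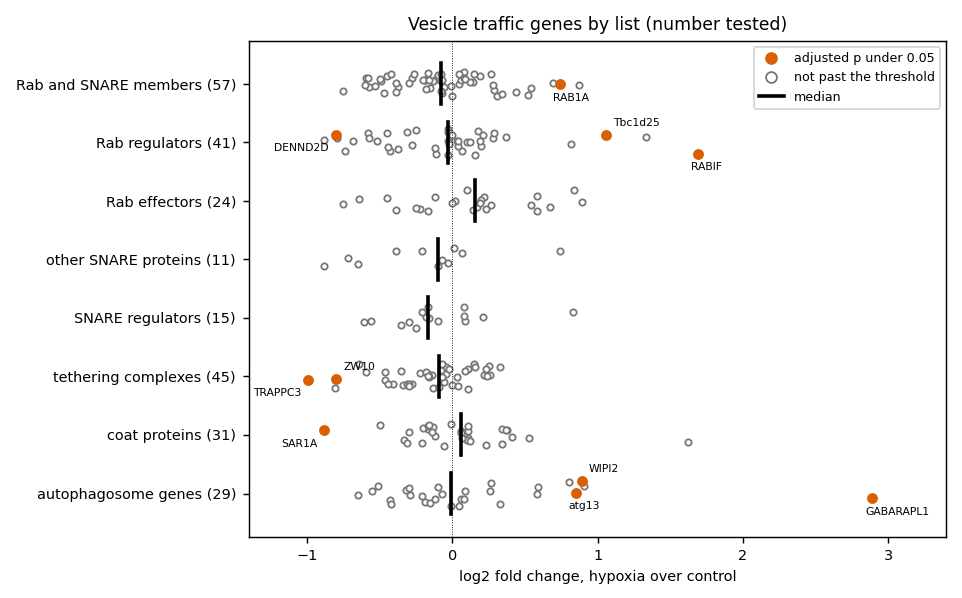
Log2 fold change, hypoxia over control, of each tested member and partner gene (points), by list, with the number tested in brackets and the list median as a bar; filled points have an adjusted p under 0.05. Medians lie between -0.17 and 0.16, GABARAPL1 stands far right at 2.89, and TRAPPC3 is the leftmost filled point at -0.99.

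In the authors' deposited table, 1 of the 85 components with a member name had an FDR under 0.05. It was the lesser Rab20 component (comp12927_c0), with an FDR of 0.014 in the authors' deposited table. The same table listed 0.15 for RAB1A comp19486_c0, 0.43 for Rab33b comp13384_c0 and 0.082 for Rab33b comp16231_c0. The authors' deposited table holds the same value as p and as FDR in each component.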

How the data were processed

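Liver mRNA was measured in 3 hypoxia and 3 control libraries, grouped by the sample titles. The series also holds 6 small RNA libraries, which were not used here. Per the labels' protocols, the authors cleaned the reads and assembled them with Trinity. RSEM 1.2.3 and DESeq are the tools named for it in the submitters' processing notes. The mRNA table that the authors deposited holds estimated counts (expected counts) per component with an effective length in bases, and the authors' FDR (a p-value) from their own comparison. It gives no genome positions. How far near-identical components share reads is not given in the sources used here.

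Estimated counts were rounded and tested in edgeR 4.0.16 (R 4.3.3) with the quasi-likelihood test, TMM scaling and filterByExpr, hypoxia against control, two-sided, over all 25415 components that passed the filter, with Benjamini-Hochberg adjustment. The standard error is the absolute log2 fold change over the square root of F. TPM were computed from counts per effective length. Alternatives used DESeq2 1.42.0 and limma 3.58.1; tables and plots used Python 3.11.15, pandas 2.3.3 and matplotlib 3.10.9. On simulated data of 25415 components, 46 of 50 4-fold rises and 41 of 50 4-fold falls passed, but only 8 of 50 2-fold rises and 6 of 50 2-fold falls. The simulation left 25215 components unchanged, so far fewer passed than the 1617 in the data, and the adjusted threshold was harder to reach. Its changed components were drawn without regard to membership, so these shares do not give the share of changes found among members.

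Deviations from group means correlated across components at 0.15, 0.19 and 0.31 for letters a, b and c, and at -0.29 to 0.18 between different letters. Hypoxia a correlated more with control b (0.18) than with control a (0.15). By the rule of every same-letter value above 0.1, the letter was used as a block in an alternative fit. The main test did not use the letters. No label says what a letter marks.

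Members and lists were chosen with earlier results of these data known. Named with values are members past the threshold, Rab33b, the 3 most abundant members of each family, the 3 highest and the 3 lowest changes that did not pass, and the leading genes of each partner list. RAB35, RAB11A, RAB20, the lesser Rab33b component, STX5, STX17, Stx11, Rab9b, RAB15, Rab3d, RAB3C, ATG16L1, EGLN3, scg3 and the genes that passed only with the letter as a block were added after their values were seen.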

Additional observations from a re-analysis of the deposited data

How the results depend on the processing

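RAB1A kept its direction in each of 15 alternatives (log2 fold change 0.64 to 0.82). With 1 library left out, 0 to 1 members rose and 0 fell. Without both libraries c, 2 rose and 1 fell. With components of 1 name summed, 0 rose and 1 fell, and with every component of a member name counted singly, 2 rose and 1 fell. The wider name rule, and a rule that name and annotation agree (chosen after seeing the data), gave 1 rise and 0 falls. Of the partner genes, main counts of 5 rises and 4 falls became 8 and 7 with DESeq2, 9 and 8 with the letter as a replicate block and 16 and 12 without both libraries c. Leaving out 1 library gave 2 to 9 rises and 0 to 4 falls among these genes. Calls over all components grew too, from 1159 rises and 458 falls to 1581 and 754 with DESeq2. They were 1695 and 798 with the block, and 2337 and 1479 without both libraries c. For members the block left 1 rise and 0 falls, and beside the calls named in the results it changed no other call of a member name or partner gene. The summed syntaxin log2 ratio was -0.24 in CPM without length. Near 0, the direction turned for Rab5c comp19660_c5 (0.050 without hypoxia c, 0.032 without both libraries c, -0.21 at lowest with 1 library out), Snap23 comp11066_c0 (0.00058 without both libraries c), STX7 comp13451_c0 (-0.0071 without hypoxia c, -0.0018 without control a, up to 0.12), VAMP7 comp7585_c0 (0.011 without hypoxia a, -0.30 without hypoxia c), Vamp3 comp19861_c0 (-0.033 without control c, 0.28 without control b) and Vamp8 comp16803_c0 (-0.0030 without control b, 0.24 without control c, 0.34 without both libraries c). The cause of these shifts was not tested. Another scaling moved the median log2 fold change of all components to between -0.035 and 0.043. Leaving out 1 library cut the calls over all components to as few as 338 rises and 45 falls (without control a).

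Most 2-fold changes simulated at these depths and 3 pools per group were missed. The adjusted threshold was harder to reach there than in the data, and the simulation was not matched to the members. A member that did not pass is not shown to be unchanged. Members under 1 TPM rest on few counts.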

Other observations

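Outside the name rules, and chosen after its values were seen, rab11fip4b, annotated as a Rab11 family-interacting protein, was at 203.1, 180.9 and 151.1 CPM in hypoxia, against 86.2, 91.7 and 83.3 CPM in control. Every hypoxia library was above every control library, and it rose (log2 fold change 1.03, SE 0.17, edgeR adjusted p = 0.010). A component without a gene name but annotated as Rab-10 (comp17374_c0), also chosen after its values were seen, was at 48.8, 47.6 and 43.1 CPM in hypoxia, against 34.4, 30.2 and 38.3 CPM in control. Its groups did not overlap, and it did not pass (log2 fold change 0.44, adjusted p = 0.15).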
